A study of Mus musculus with 18 samples.

Results

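Rostral and caudal embryonic mouse neocortex were compared head to head on 6 of the 18 arrays of the series. These were the arrays whose labels named a rostral pool (R1, R2 or R3) in one dye channel and a caudal pool (C1, C2 or C3) in the other. The other 12 arrays joined the rostral or the caudal pools to pools of a middle position and are used here only for values set side by side. Both groups were neocortex of MF1 mice, an outbred strain, at stage E13.5 (embryonic day), and the labels name no allele, agent or treatment in either. All 9 pools came from 4 embryos, per the labels, with no record of the embryos behind each pool. A p-value here reflects only how much these pools vary, and that variation could be technical. The study asked how expression differs along the front-to-back axis of the early cortex.

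At this stage the neocortex is a sheet of dividing radial glia covered by the first neurons, and its future areas are not yet visible. Position is laid down by signals from the edges of the sheet. FGF ligands are released at the rostral pole, and WNT and BMP ligands at the cortical hem, caudally and medially. Transcription factors read these signals as gradients: Pax6 and the ETS factors are known as higher rostrally, and Nr2f1 (COUP-TFI), Emx2 and Lhx2 as higher caudally.

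The 6 arrays formed a closed ring over the 6 pools. R2 with C1, R1 with C3 and R3 with C2 carried the rostral pool in Cy5, and R1 with C2, R2 with C3 and R3 with C1 carried it in Cy3. Each pool was thus on 2 arrays, once in each dye. The values are log2 ratios, turned here to rostral minus caudal, so that 1 unit is a doubling. The labels do not state which dye was the numerator. Cy5 over Cy3 was taken as the likely direction from the order of the channels and because Nr2f1, with a known caudal excess, was then higher caudally on all 6 arrays. All signs would turn together in the opposite reading. Because Nr2f1 helped to settle the sign, its direction is no finding here. Each array held between 18142 and 20331 usable ratios. A ratio on all 6 was available for 14766 features, among them probes for 11032 named genes. A ratio holds no level of a gene, so the tissue could not be checked against the level of its markers. In bulk tissue, fewer cells of a type and less RNA per cell cannot be told apart.

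The promoters of the genes at the extremes are shown for orientation, because the data set 3 of them apart: Scrn1 had the largest rostral excess among the genes named below, Nr2f1 the caudal difference with the lowest p, and Etv1 was the known rostral factor with the lowest p. Each sequence is the 250 bases before the start of transcription, from RefSeq on GRCm38.p6, read 5′ to 3′ on the gene's strand. The Scrn1 window is chr6:54566383-54566632 on the minus strand, the Nr2f1 window chr13:78198874-78199123 on the minus strand and the Etv1 window chr12:38779832-38780081 on the plus strand. For Nr2f1 and Etv1 the first of 2 listed starts was used. Capitals mark the only match in the 3 windows to any of 4 motifs searched on both strands.
Scrn1: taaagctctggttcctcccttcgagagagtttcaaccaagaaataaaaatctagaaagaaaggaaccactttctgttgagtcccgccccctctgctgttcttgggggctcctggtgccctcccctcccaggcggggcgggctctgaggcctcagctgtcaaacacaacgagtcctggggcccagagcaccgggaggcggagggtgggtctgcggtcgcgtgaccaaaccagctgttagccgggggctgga
Nr2f1: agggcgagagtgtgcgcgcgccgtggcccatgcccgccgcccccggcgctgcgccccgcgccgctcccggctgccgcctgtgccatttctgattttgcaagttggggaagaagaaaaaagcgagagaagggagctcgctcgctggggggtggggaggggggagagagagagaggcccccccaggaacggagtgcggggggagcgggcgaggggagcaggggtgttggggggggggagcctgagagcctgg
Etv1: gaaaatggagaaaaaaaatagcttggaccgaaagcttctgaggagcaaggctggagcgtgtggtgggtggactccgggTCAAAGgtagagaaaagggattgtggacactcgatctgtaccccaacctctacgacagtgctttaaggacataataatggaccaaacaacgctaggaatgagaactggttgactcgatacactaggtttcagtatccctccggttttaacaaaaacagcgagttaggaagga
The motifs were the nuclear receptor half-site AGGTCA, the ETS core CCGGAA, the TCF/LEF core CTTTGA and the homeodomain core TAATTA, and the match in Etv1 is to the TCF/LEF core, read on the opposite strand. Of 32851 windows of this length in the table, 14% held the half-site, 12% the ETS core, 13.8% the TCF/LEF core and 4.84% the homeodomain core. Of the 24 genes with the clearest differences, described next, 20 had a window. The half-site was in 2 of these (Hpca and Tnfaip6), the ETS core in 4 (Ltbp1, Mt1, Rrm2 and Vim), the TCF/LEF core in 1 (As3mt) and the homeodomain core in 1 (Ptgds). A match is a description of the letters and not a binding site.

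Differences between the ends of the cortex were small for most genes and reached about 3-fold for the clearest. The median difference was 0.01, and 5% of features lay below -0.39 and 5% above 0.385. With the pool as the sample (limma, 3 rostral against 3 caudal pools), 0 of 14766 features (0%) passed an adjusted p of 0.05. At an unadjusted p under 0.05 there were 651 features (4.41%), 341 higher rostrally (2.31%) and 310 higher caudally (2.1%). With the spread between the 6 arrays as the error, 2 features (0.0135%) passed: Scrn1, higher rostrally, and Nr2f1, higher caudally. Arrays share pools, so p-values of this second fit are too small, and neither gene passed when any 1 array, or the 2 arrays of any 1 pool, were left out. At an unadjusted p under 0.05 this array fit had 1974 features (13.4%). The pool values are solved from the same 6 ratios, so noise of single arrays also widens the spread between pools. P-values of the pool fit can therefore be too large. Its median SE was 0.121, against 0.075 in the array fit. That 0 features passed in it does not show that no gene differs.

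A descriptive rule then picked features whose 6 differences, corrected for the dye, all lay on 1 side of 0 with a mean of at least 0.5. It held for 139 features (0.941%), 79 higher rostrally (0.535%) and 60 higher caudally (0.406%). A difference of at least 0.5 in size alone held for 936 features (6.34%). Of these 139, 111 had 1 gene symbol, from 109 different genes, and 12 had a dye term larger than the difference. The 24 genes named below are the 12 per direction with the lowest p in the pool fit among those picked. Agreement of their arrays in sign follows from this choice and is no test. The rostral and caudal pools did not overlap for 106 of the 139 picked features and for all 24 named genes, which were chosen by values of the same arrays. Over all features they did not overlap for 1469 (9.95%), with 773 of them higher rostrally (5.23%). Their adjusted p ran from 0.423 to 0.838 in the pool fit.

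**Figure D1:**
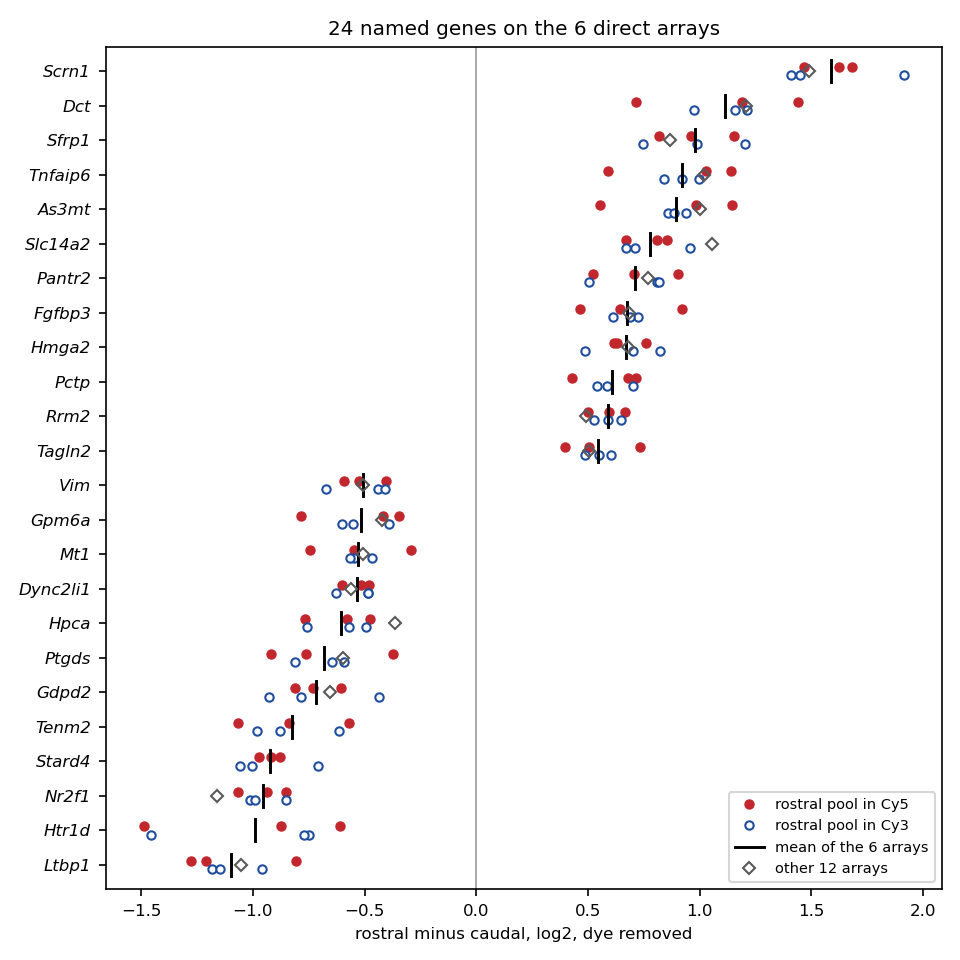
Rostral minus caudal difference (log2, dye removed) of the 24 named genes, 1 point per direct array by dye of the rostral pool, with the mean of the 6 arrays as a bar and the value from the other 12 arrays as a diamond where measured. Scrn1 lies farthest to the rostral side at 1.59 and Ltbp1 farthest to the caudal side at -1.10.

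Scrn1, which encodes secernin 1, first described as a regulator of mast cell exocytosis, was 3.01-fold higher rostrally. Its 6 differences were 1.68 (R2 with C1), 1.47 (R1 with C3), 1.62 (R3 with C2), 1.41 (R1 with C2), 1.92 (R2 with C3) and 1.45 (R3 with C1). The smallest of the 6 still exceeded a doubling. The mean was 1.59 ± 0.14 (SE of the pool fit, 3 pools a side), with an adjusted p of 0.0273 in the array fit and 0.423 in the pool fit.

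Dct, an enzyme of melanin synthesis, was 2.165-fold higher rostrally, at 1.19, 0.71, 1.44, 0.97, 1.16 and 1.21 on the arrays in the same order. The lowest of these was R1 with C3, and pool R1 was the lowest of the rostral pools. Sfrp1, a secreted WNT antagonist, was at 1.16, 0.82, 0.96, 0.99, 0.75 and 1.20, with a mean of 0.98 ± 0.12. A second Sfrp1 probe gave 0.70 ± 0.094. The rostral pools of Sfrp1 lay close together (SD 0.038, n = 3) and its caudal pools less so (SD 0.21, n = 3).

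As3mt, which methylates arsenic, was at 0.98, 0.55, 1.15, 0.86, 0.88 and 0.94, a 1.86-fold rostral excess. Tnfaip6, a hyaluronan-binding secreted protein, was 0.92 ± 0.15 higher rostrally and Slc14a2, a urea transporter best known in kidney, 0.78 ± 0.097. Pantr2, a long noncoding RNA, was at 0.71 ± 0.12.

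The rostral genes also included Fgfbp3, Hmga2, Rrm2, Tagln2 and Pctp. Fgfbp3, which encodes an FGF-binding secreted protein, was at 0.92, 0.46, 0.64, 0.73, 0.61 and 0.69, a mean of 0.68 ± 0.12. Hmga2, a chromatin protein known for promoting self-renewal of young neural stem cells, was 0.67 ± 0.095 higher rostrally. Rrm2, the regulatory subunit of ribonucleotide reductase, was at 0.60, 0.67, 0.50, 0.53, 0.59 and 0.65, the narrowest range among the 12 rostral genes (mean 0.59 ± 0.071). Tagln2, an actin-binding protein, was at 0.545 ± 0.090. Pctp, a phosphatidylcholine transfer protein, averaged 0.61, but it was at 1.21 with the rostral pool in Cy5 and at 0.01 with it in Cy3, so its value rests on the dye correction.

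On the caudal side Nr2f1, the orphan nuclear receptor known to set caudal area identity, was 1.94-fold higher. Its 6 differences were -0.94, -0.85, -1.07, -0.85, -1.01 and -0.99 in the order given for Scrn1. They spanned a narrow range, and the 3 caudal pools lay close together (SD 0.044). The mean was -0.95 ± 0.081, with an adjusted p of 0.0273 in the array fit and 0.423 in the pool fit. A second Nr2f1 probe gave -1.08 ± 0.46.

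Ltbp1, a matrix protein that holds latent TGF-beta, was 2.14-fold higher caudally, at -1.21, -0.805, -1.28, -0.96, -1.18 and -1.15. The 2 smallest of these differences were the arrays with pool R1. Ptgds, a prostaglandin D synthase made by the meninges, was at -0.76, -0.37, -0.92, -0.65, -0.59 and -0.81, with a mean of -0.68 ± 0.11. Vim, the intermediate filament of radial glia, was at -0.52, -0.59, -0.41, -0.44, -0.67 and -0.41, a mean of -0.51 ± 0.075.

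The caudal genes also included Hpca, a calcium sensor (-0.61 ± 0.090), Gpm6a, a membrane glycoprotein of growing neurites (-0.515 ± 0.10, second probe -0.48 ± 0.10), and Tenm2, a teneurin adhesion protein. The 3 Tenm2 probes gave -0.825 ± 0.16, -0.68 ± 0.28 and -0.41 ± 0.15. Gdpd2, a glycerophosphodiester phosphodiesterase, averaged -0.72 ± 0.11, with -1.12 where the rostral pool was in Cy5 and -0.32 where it was in Cy3. Dync2li1, a subunit of the ciliary dynein, was at -0.53 ± 0.075, and Mt1, a metal-binding metallothionein, at -0.53 ± 0.11. The serotonin receptor gene Htr1d (-0.99 ± 0.20) and Stard4, a cholesterol transfer protein (-0.92 ± 0.10), were caudal mainly with the rostral pool in Cy3. Htr1d was at -0.045 with the rostral pool in Cy5 and at -1.94 with it in Cy3, and Stard4 at -0.13 and -1.72.

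**Figure D2:**
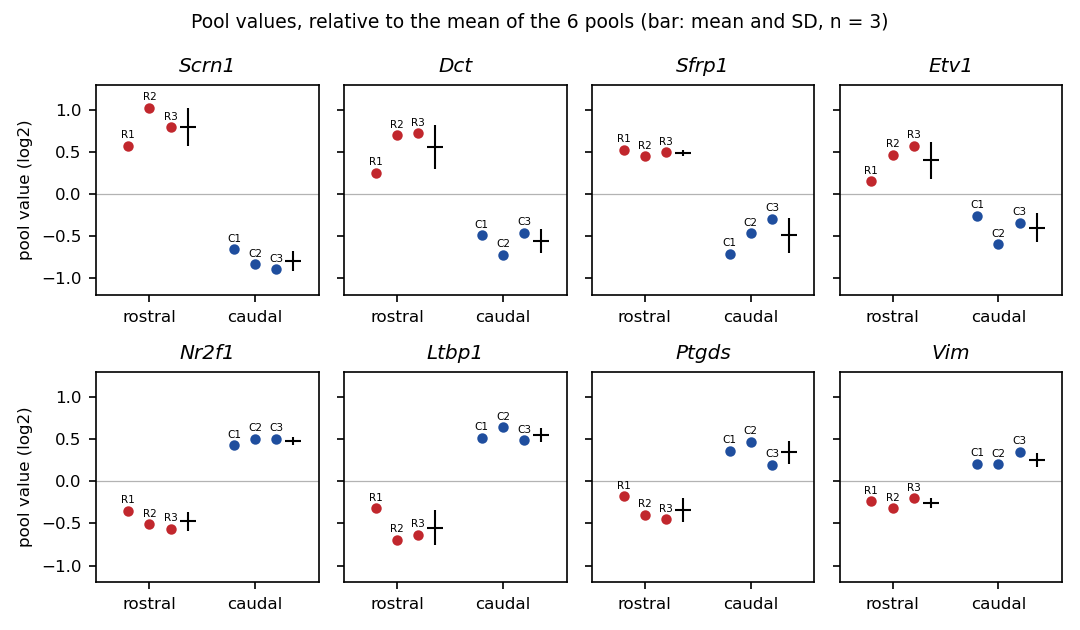
Value of each pool (log2, relative to the mean of the 6 pools) for 8 genes, rostral pools left and caudal pools right, with the mean and SD of 3 pools as a bar beside them. Scrn1 has the widest gap between the regions, and pool R1 lies nearest to the caudal pools for Scrn1, Dct, Etv1, Nr2f1, Ltbp1 and Ptgds.

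For a typical feature the dye term and the difference between regions were of like size, and neither stood far above its error. The median size of the dye term was 0.10 and that of the difference 0.096, beside a median SE of 0.075 in the array fit. In that fit 0 features had a dye term past an adjusted p of 0.05. Before the dye was removed, 7700 features (52.1%) had opposite signs in the 2 orientations, which noise could also give. With dye terms removed, all 6 differences lay on 1 side of 0 for 2104 features (14.2%). The 25 features picked by the rule with a mean of at least 1 included many of poor precision: their median SE was 0.567, against 0.121 over all features. Slc14a1, a second urea transporter gene, averaged -2.01 ± 1.27, and its arrays ran from -0.19 to -5.00. Such values are large without being well measured.

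**Figure D3:**
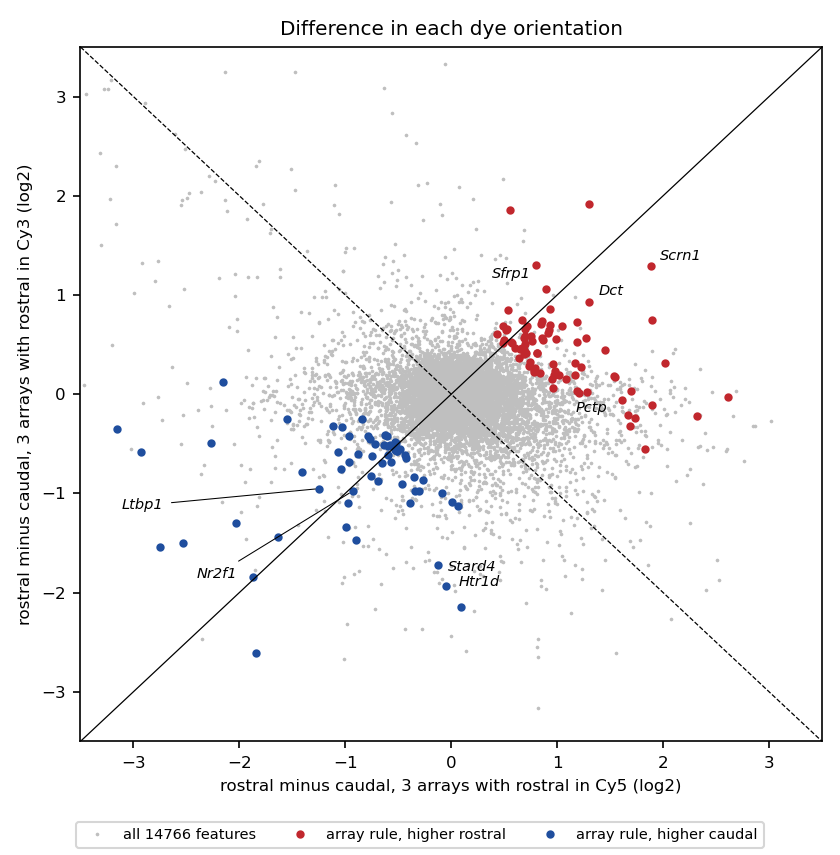
Mean rostral minus caudal difference (log2) of the 3 arrays with the rostral pool in Cy5 (horizontal) against that of the 3 arrays with it in Cy3 (vertical), for 14766 features, with the features picked by the array rule in red (rostral) and blue (caudal); 8 features lie outside the axes. Scrn1, Dct, Sfrp1, Ltbp1 and Nr2f1 lie near the solid diagonal, where both orientations give the same difference, whereas Pctp, Stard4 and Htr1d lie near 0 in one orientation.

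The same comparison could be assembled from the other 12 arrays, by way of the middle pools. The rostral and caudal pools are the same, so this repeats the hybridisation and not the sampling. On those arrays 21 of 13816 features (0.152%) passed in the pool fit, with a lowest adjusted p of 0.008. Of the 24 named genes, 20 were measured there, and 7 passed: Scrn1, Dct, As3mt, Pantr2, Fgfbp3, Nr2f1 and Vim. Scrn1 was at 1.49 on the other arrays (adjusted p = 0.00800) and Nr2f1 at -1.16 (adjusted p = 0.0128). Dct was at 1.21 (adjusted p = 0.0266), As3mt at 1.001 (adjusted p = 0.0103), Pantr2 at 0.77 (adjusted p = 0.00800), Fgfbp3 at 0.68 (adjusted p = 0.0491) and Vim at -0.505 (adjusted p = 0.0133). These sizes were near those of the direct arrays for each of the 7 genes. The 7 were chosen by both sets of arrays, so near sizes largely follow from the choice and are no test.

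The other named genes did not pass there by the probe that named them. Sfrp1 was at 0.87 by its first probe (adjusted p = 0.146) and at 0.78 by its second (adjusted p = 0.0431). Slc14a2 was at 1.055, Tnfaip6 at 1.02, Hmga2 at 0.68, Ltbp1 at -1.055, Ptgds at -0.60 and Mt1 at -0.51. Hpca was at -0.36 there, against -0.61 on the direct arrays. Of the 98 picked features measured on the other arrays, 14 passed there, against 21 of 13816 over all features (0.152%). The 98 were picked for large differences between the same pools, so a higher share follows from the choice and is no test. Other picked features were at values of opposite sign there: Parva, an actin-binding parvin, averaged -1.755 ± 0.41 on the direct arrays and 0.18 on the others, and Fbxo32, a ubiquitin ligase subunit, 1.05 and -0.20. Their dye terms were -1.17 and 1.27. These 2 were chosen after their values were seen.

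Whether the direct difference departed from the assembled one was tested on the 12571 features with all 18 values (limma, 8 residual degrees of freedom). No feature passed (0 of 12571, 0%), and 646 (5.14%) had an unadjusted p under 0.05, with a lowest adjusted p of 0.814. Parva had an adjusted p of 0.814 in this test, and so had Fbxo32. With all 18 arrays in 1 pool fit, 46 features (0.366%) passed for rostral against caudal.

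Genes known as rostral in the early cortex were split. Of 8 on all 6 arrays, 4 had an unadjusted p under 0.05 in the pool fit, against 4.41% of all features, all 4 higher rostrally, and 0 passed after adjustment over all features. Etv1, an ETS factor downstream of FGF signalling, was at 0.73, 0.49, 1.17, 0.75, 0.81 and 0.835 in the order given for Scrn1. Its rostral and caudal pools did not overlap, and the mean of 0.80 ± 0.15 was a 1.74-fold excess (0.79, adjusted p = 0.0133, on the other arrays). Spry2, a feedback inhibitor of FGF receptors, was 0.39 ± 0.093 higher rostrally (0.60 on the other arrays).

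The related ETS genes gave other values. Etv5 was at 0.32 ± 0.10 by one probe and -0.04 ± 0.075 by another, and Etv4 at 0.07 ± 0.13. The ligands Fgf8 (-0.07 ± 0.099) and Fgf17 (0.06 ± 0.063) were near 0, Spry4 was at -0.28 ± 0.52, and Dusp6, measured on 5 arrays, at -0.73 with no test. Pax6, the homeobox factor of rostral and lateral cortex, was at 0.46 ± 0.11 by one probe and 0.33 ± 0.12 by another. On the other arrays the first Pax6 probe was at 0.01 and the second at 0.305. The median over the 9 measured members was 0.07, against 0.01 over all features, and 0.01 on the other arrays. Without centring the arrays it was -0.02, and that over all features -0.08.

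Among genes known as caudal with values on all 6 arrays, Nr2f1 lay well apart from the rest. Besides it, Lhx2, a selector of cortical identity, was at -0.28 ± 0.11 (unadjusted p = 0.0426 in limma) and Emx2, a homeobox factor of caudal and medial cortex, at -0.17 ± 0.086. Emx1 was at -0.09 ± 0.062. The hem ligands Wnt3a (-0.07 ± 0.069), Wnt5a (-0.06 ± 0.078) and Wnt8b (-0.04 ± 0.125) and the WNT targets Lef1 (-0.04 ± 0.079) and Axin2 (0.04 ± 0.077) were near 0. Fgfr3, an FGF receptor known as caudally high, was at 0.14 ± 0.080 on the direct arrays and -0.20 on the others. Wnt2b was at -0.77 on 5 arrays, with no test. Of 11 measured members, 9 lay below 0 and 2 above, where 53.6% of all features lay above, and the median was -0.07. On all 6 arrays 2 of 10, Nr2f1 and Lhx2, had an unadjusted p under 0.05, against 4.41% of all features. Both counts include Nr2f1, which helped to choose the sign of the ratios.

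Among further FGF genes, Flrt3, a membrane protein that binds FGF receptors, was at -0.455 ± 0.13. It was the only one of 14 with an unadjusted p under 0.05, against 4.41% of all features. Fgfr2 was at -0.16 ± 0.073 and Fgf18 at 0.40 ± 0.29. Among WNT and BMP genes, 2 of 24 had such a p: Sfrp1, given above, and Wls, the carrier that WNT ligands need for secretion, at -0.45 ± 0.10. Neither passed after adjustment, and counts this small do not set the FGF or the WNT and BMP list apart from all features. The ligand Wnt7a was at -0.05 ± 0.071. Bmp7 was at 0.12 ± 0.056 and at -0.40 on the other arrays, and Id3 at -0.22 ± 0.12.

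Areal markers outside these pathways gave 4 of 15 with an unadjusted p under 0.05, against 4.41% of all features, and 0 passed after adjustment. Ptn, a heparin-binding growth factor, was at 0.57, 0.43, 0.41, 0.42, 0.52 and 0.48, with a mean of 0.47 ± 0.063. Its arrays were tight, and its mean lay just below the size of 0.5 that the array rule asked for. Crym, a thyroid hormone-binding protein, was at -0.39 ± 0.076 (-0.54, adjusted p = 0.0491, on the other arrays), Lmo4, a LIM-only cofactor, at -0.36 ± 0.12 and Mef2c at 0.19 ± 0.070 (-0.03 on the other arrays). In axon guidance and adhesion genes, 2 of 27 had such a p. Cdh10, a cadherin, was at 0.63 ± 0.13 and Epha7, an Eph receptor, at -0.31 ± 0.10, while Efnb2 was at 0.18 ± 0.071.

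Progenitor and neuronal genes were mixed in direction. Over all features, 4.41% had an unadjusted p under 0.05. In the radial glia list 4 of 20 did: Vim and Lhx2 were lower rostrally, and Pax6 and the glutamate transporter Slc1a3 (0.31 ± 0.081) higher. The radial glia genes Nes (0.02 ± 0.082), Fabp7 (-0.05 ± 0.075) and Sox2 (0.075 ± 0.070) were near 0, and the list median was 0.07. Of 12 intermediate progenitor genes 3 had such a p: Gadd45g, a growth arrest gene (-0.26 ± 0.069), Sstr2, a somatostatin receptor (-0.285 ± 0.097), and Insm1, a neurogenic zinc finger factor (0.29 ± 0.10). Eomes, their defining factor, was at -0.07 ± 0.074. The Notch effector Hey1 was at -0.335 ± 0.074, the only one of 17 Notch genes with such a p.

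Cortical neuron genes had 6 of 20 with an unadjusted p under 0.05, against 4.41% of all features, and 0 passed after adjustment. Foxp2 (0.36 ± 0.098), the splicing factor gene Rbfox1 (0.23 ± 0.069), the synaptic vesicle gene Syt1 (0.28 ± 0.10) and Neurod6 (0.16 ± 0.060) were higher rostrally. Fezf2, the determinant of subcerebral projection neurons (-0.29 ± 0.082), and Neurod1 (-0.225 ± 0.076) were lower there. The probe that stood for Bcl11b in this list was not among the 6. A second Bcl11b probe, outside the count, was at 0.465 ± 0.094 (0.44 on the other arrays). The median over the list was 0.01, the same as over all features. Reln, the signal of Cajal-Retzius cells, was at -0.39 ± 0.10 by one probe and -0.07 ± 0.16 by another.

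Proliferation genes were more often above 0 than below it, 17 against 10, with a median of 0.09 against 0.01 over all features, and 0.13 on the other arrays. Without centring the arrays the median of the list was 0.00 and that of all features -0.08. Of all features, 53.6% lay above 0. Of the 27 genes, 5 had an unadjusted p under 0.05, against 4.41% of all features, and 0 passed after adjustment. Of the 5, 4 were higher rostrally and act in DNA replication or chromatin. They were Rrm2, Hmgb2 (0.35 ± 0.077) and the helicase subunits Mcm3 (0.44 ± 0.078) and Mcm5 (0.47 ± 0.13). A second Mcm5 probe gave 0.275 ± 0.13, with an unadjusted p of 0.087 in limma's pool fit. The exception among the 5 was Ccnd2, a D-type cyclin, at -0.22 ± 0.065 by one probe and 0.25 ± 0.090 by another, so its direction is not settled. The mitotic genes Plk1 (-0.055 ± 0.091), Aurkb (-0.055 ± 0.077) and Ccnb2 (-0.01 ± 0.066) were near 0. The pool medians of the list were 0.05, 0.04 and 0.023 in R1 to R3 and -0.09, -0.06 and 0.016 in C1 to C3, so R3 and C3 were nearly equal.

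**Figure D4:**
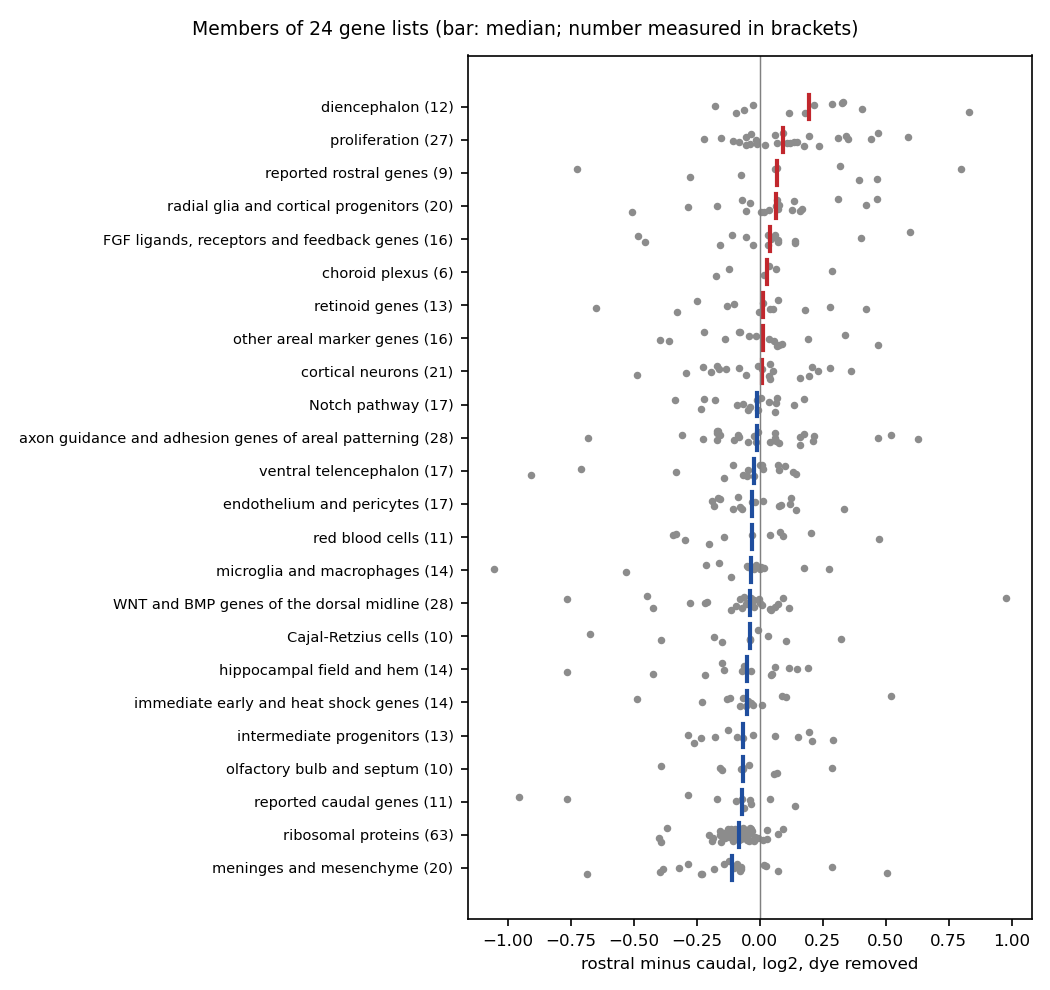
Rostral minus caudal difference (log2, dye removed) of every measured member of 24 gene lists (grey points) with the median of each list (red above 0, blue below), sorted by median. Medians lie between -0.11 for meninges and 0.20 for the diencephalon list, and single genes such as Sfrp1 and Nr2f1 lie far from the median of their list.

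Markers of tissue outside the cortical wall were also read, because dissected pieces can carry them. Of 20 measured meningeal and mesenchymal genes, 15 lay below 0 and 5 above, where 53.6% of all features lay above. They ran from -0.68 to 0.505, with a median of -0.11 (-0.07 on the other arrays). Ptgds, Dcn, a matrix proteoglycan (-0.395 ± 0.11), and Pdgfra (-0.285 ± 0.11) had an unadjusted p under 0.05 out of 19, against 4.41% of all features. None passed after adjustment. Col1a1 was at -0.14 ± 0.086 and Col3a1 at 0.02 ± 0.065. The pool medians were 0.04, -0.15 and -0.09 in R1 to R3 and 0.08, 0.05 and 0.08 in C1 to C3, so pool R1 lay just below the caudal pools. Pool R1 was also the rostral pool nearest to the caudal ones for Ptgds and Ltbp1. The same held for Scrn1, Dct, Etv1 and Nr2f1, which are not in this list, but not for Sfrp1 or Vim. The part of meningeal RNA in the caudal differences was not tested.

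Red blood cell genes differed between pools more than between regions, with medians of 0.02, -0.04 and -0.19 in R1 to R3 and -0.05, 0.235 and 0.13 in C1 to C3. Alas2, the haem synthesis enzyme of red cells, was at -0.30 ± 0.11, the embryonic globin gene Hbb-y at -0.33 ± 0.15, and Hba-a1 at 0.09 ± 0.11. Endothelial genes had a median of -0.03 with 0 of 17 below an unadjusted p of 0.05, and microglial genes -0.03 with 0 of 12. Of all features, 4.41% had such a p, so counts of 0 in lists this short say nothing about the content of these cells.

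Genes of neighbouring brain regions are set here beside all features, of which 4.41% had an unadjusted p under 0.05 in the pool fit. The lists are short, so counts of 0 or 1 do not set them apart from that share. Ventral telencephalon genes had 0 of 13 with an unadjusted p under 0.05 (Gad2 0.10 ± 0.066, median -0.02), choroid plexus genes 0 of 6 and retinoid genes 0 of 11. The diencephalon list had the highest median, 0.20, but 1 of 9 had such a p, Rora at -0.18 ± 0.061. Its members with rostral values had wide errors, such as Irx5 at 0.41 ± 0.27, and the list median was -0.065 on the other arrays. In the olfactory bulb and septum list, 1 of 9 had such a p, Reln, and in the hippocampal and hem list 1 of 11, Mef2c. Zic1, a septal and meningeal factor, was at 0.29 ± 0.12. Among immediate early and heat shock genes it was 2 of 14, Egr1 at 0.52 ± 0.15 (dye term 0.31) and Hsph1 at -0.23 ± 0.086.

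Ribosomal protein genes showed a small shift shared by nearly the whole list: 58 of 63 measured lay below 0, with a median of -0.08 and a range from -0.40 to 0.09. Among the 61 on all 6 arrays, 3 had an unadjusted p under 0.05, a share near the 4.41% over all features: Rpl13 (-0.39 ± 0.092), Rps10 (-0.37 ± 0.092) and Rps4l (-0.40 ± 0.14). Pool medians were 0.04, 0.02 and -0.16 in R1 to R3 and -0.12, 0.10 and 0.15 in C1 to C3. They overlapped between the regions, with R3 and C1 lowest. The list median was -0.09 on the other arrays. Without centring each array on its median, all features moved down alike: the list median was -0.17, the median over all features -0.08 in place of 0.01, and 27.7% of features lay above 0 in place of 53.6%.

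**Figure D5:**
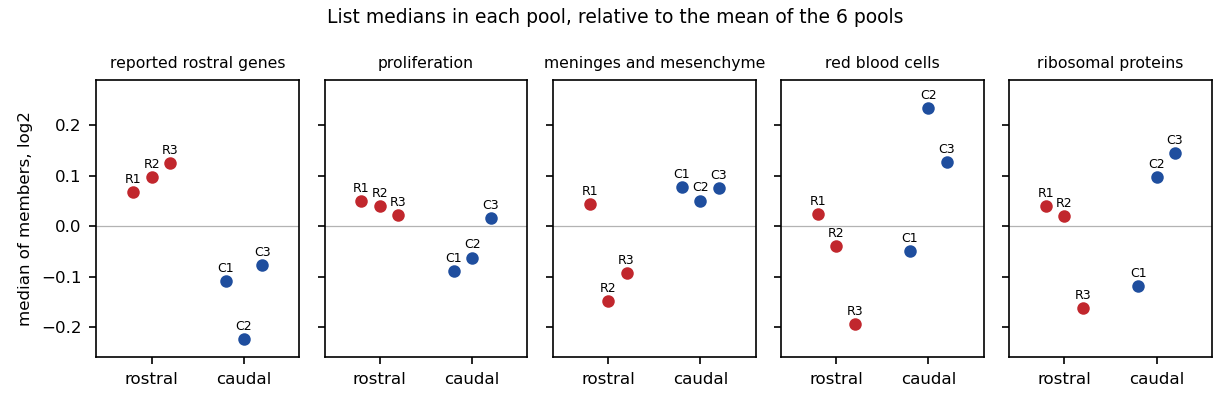
Median over the members of 5 gene lists in each pool (log2, relative to the mean of the 6 pools), rostral pools in red and caudal pools in blue. The rostral medians lie above the caudal ones for the reported rostral genes (8 members) and, barely, for the proliferation genes (R3 0.023, C3 0.016). Of single features, 9.95% keep the pools of the 2 regions apart, 5.23% with rostral higher, so such an order is not rare. Pool R1 lies just below the caudal pools for the meningeal list, and rostral and caudal pools overlap for red blood cells and ribosomal proteins.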

How the data were processed

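Paired pools of neocortical RNA were read on arrays in 2 dyes. The authors deposited 1 log2 ratio per probe and array. The cap of the values, 16.61, is log2 of 100000, which shows the base. RNA was extracted with Trizol, per the labels' protocols. The scanner, the background correction, any filter and the normalization were not given in the sources used here.

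Of 21998 probes, 232 Gapdh control spots were left out. Of the other 21766, 16632 had 1 gene symbol in the platform annotation, 139 several, and 4995 are unnamed here. Capped ratios (39 to 130 on an array) were set to missing, and 1435 to 3624 values were missing. The most were on the array of R3 with C2. Each array was centred on its median (-0.01 to 0.379 before). The centred Gapdh control spots then lay between -0.25 and 0.06, rostral minus caudal. The number of arrays limits the precision.

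The 6 ratios of a feature give its 6 pool values and the dye term exactly. limma 3.58.1 (R 4.3.3; lmFit, eBayes, two-sided, Benjamini-Hochberg over all features) was fitted to the pool values (4 residual degrees of freedom). Each pool value shares arrays with those of the other region. The array fit used the 6 ratios with a dye coefficient. Values on the other 12 arrays came from least squares over the 9 pools. The fits were also run on simulated data with known differences. How many of these they found is not reported here, so that run is no measure of their power.

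Named genes were the 12 per direction with the lowest pool-fit p among genes picked by the array rule, the members of both reported lists, and up to 4 per other list, by p. For a list gene with several probes, the probe on most arrays, then the first in the table, stood for it. The 24 lists and their members were chosen with earlier results of these data known, so their counts are not independent evidence. Alternatives were the centring, the cap, the scale of the arrays, the arrays used, the pool number as a block and the size limit.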

Additional observations from a re-analysis of the deposited data

How the results depend on the processing

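The pool fit passed 0 features under every alternative on the direct arrays that was run: without centring, with capped ratios kept, with the arrays scaled to a common spread, and with the pool number as a replicate block (0 features passed). Same-numbered pools were never on 1 array, and the ring of arrays itself ties their values to each other negatively, so whether the numbers pair the pools could not be tested. The pool fit passed 46 features (31 rostral, 15 caudal) with all 18 arrays and 21 (13 rostral, 8 caudal) with the other 12 alone. The array fit passed 2, 0 without centring, 7 (3 rostral, 4 caudal) with scaled arrays, 0 with at least 2 arrays in each orientation, and 0 in each of the fits that left out an array or a pool (0 to 0). The cause was not tested. The array rule held for 25 features at a size of at least 1 and for 2104 with no minimum size, against 139, for 159 without centring and for 128 with scaled arrays. The direct against the assembled difference passed 0 features under every scaling run. Of 328 values of the 24 named genes under the alternatives, 0 took the other sign, which their choice by 6 arrays on 1 side largely fixed. Leaving out the centring moved all features down alike. Under the centred alternatives, 28 of 240 list medians took the other sign, and the medians of 10 lists did not: reported rostral, reported caudal, WNT and BMP, radial glia, intermediate progenitor, proliferation, meningeal, red blood cell, microglial and ribosomal genes. With the setting without centring included, 35 of 264 took the other sign. In that setting the reported rostral and the radial glia medians were -0.02, with the median over all features at -0.08.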

Other observations

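The genes given here were chosen after their values were seen. Gap junction genes differed among themselves: Gja1, the main connexin of radial glia, was lower rostrally by all 6 direct arrays, at -0.71, -0.42, -0.70, -0.25, -0.79 and -0.79 (R2 with C1, R1 with C3, R3 with C2, R1 with C2, R2 with C3, R3 with C1), a mean of -0.61 ± 0.14. Gjb6 was at -0.90 ± 0.19, whereas Gjc1 was at -0.01 ± 0.092. On the other 12 arrays Gja1 was at -0.60 and Gjb6 at -0.805. The arrays with pool R1 gave the smallest differences for both Gja1 and Gjb6. Mt3, a metallothionein of brain, was at -0.385 ± 0.099, beside Mt1 at -0.53 ± 0.11. Cryab, a small heat shock protein, was at -0.79 ± 0.17 (adjusted p = 0.0437 on the other arrays in limma's pool fit).

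Pantr1, a noncoding RNA gene that neighbours Pou3f3 in the RefSeq table, as does Pantr2, was at 0.64 ± 0.12 on the direct arrays and 0.60 on the others. Pou3f3 itself was at 0.04 ± 0.063. Pou3f2, a related POU factor, was at 0.74 ± 0.22 by one probe and -0.01 ± 0.058 by another. Also, 4 further genes of the array rule passed in limma's pool fit of the other arrays: Pdzph1 (0.87 ± 0.17 direct, 1.14 on the others, adjusted p = 0.0128), Acss1, an acetyl-CoA synthetase (0.60 ± 0.14, 0.62, adjusted p = 0.0130), Rnf180, a ubiquitin ligase (0.62 ± 0.14, 0.65, adjusted p = 0.0437), and Zcchc12 (-0.67 ± 0.195, -0.79, adjusted p = 0.0400). The pools are the same on both sets of arrays.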
